A study of Homo sapiens with 6 samples.

Results

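The keratin genes were defined by their names, as the protein-coding genes of GENCODE release 44 called KRT followed by digits and an optional letter. There were 55 of them among 20033 protein-coding genes, 27 on chromosome 12 and 28 on chromosome 17. They were compared with binding sites of UHRF1's tandem Tudor domain (TTD). UHRF1 helps to copy CpG methylation onto the new DNA strand after replication. The TTD binds histone H3 tails that carry K9me2/3, and the study asked about tails that carry K4me1 as well. In CIDOP, native mononucleosomes are pulled down as in ChIP, but with a GST-tagged reading domain (here residues 126 to 280 of UHRF1) where an antibody would be used. These came from untreated HepG2 cells, an established human hepatoblastoma line, so all values describe a single tumour line and no second cell type. The series holds 6 libraries, as 2 biological replicates of the TTD CIDOP, of an H3K9me2 ChIP and of the input. Only the list of TTD peaks, called on the mean of the TTD replicates, was used here. It lists 31569 peaks by position and width, without a score, so there is no error between replicates, and no test between genes was made. The list holds no read counts, and the methods give only a minimum number of reads, so the depth behind a peak is not known. RNA is not part of the list, and keratin transcription was not analysed here.

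Keratins form the intermediate filaments of epithelial cells. A filament is built from heterodimers of a type I with a type II keratin, and each epithelium uses its own partners. KRT8 (type II) and KRT18 (type I) are the keratins of hepatocytes, whereas bile duct cells add KRT7 and KRT19. Most other members belong to the epidermis, the mucosa, the hair follicle, the hair shaft or the nail. The type II genes lie together on chromosome 12, with KRT18 as the single type I gene at their edge, and the other type I genes lie on chromosome 17, where a block of genes for keratin-associated proteins (KRTAP), the matrix proteins of hair, divides them.

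TTD peaks touched few keratin genes, and the liver keratins were not among them. Cover here means how much of a region, in percent, TTD peaks occupy. At the TSS of KRT8 and at the TSS of KRT18, the cover of the 2.5 kb on each side was 0%, and the gene bodies of both were covered to 0% as well. Among the 53 other keratin genes, 4 had a peak in the TSS window and 4 in the gene body, which together were 5 genes, KRT23, KRT39, KRT10, KRT19 and KRT6C. Over all 55, the TSS count is 7.27% (95% Wilson interval 2.86 to 17.3), against 16.9% of all protein-coding genes, a share that lies within the interval. The body count is also 7.27%, against 30.6%. A peak in either region was found for 9.09% of the keratin genes (3.95 to 19.6), against 36.2% of all protein-coding genes and 23.8% of those in the keratin range of spans. Keratin genes are short, with a median span of 6433 bp against 22913 bp for all protein-coding genes, and of the genes whose span lies in the keratin range of 2990 to 34519 bp, 17% had a peak in the body. This share also lies within the Wilson interval of the keratin bodies (2.86 to 17.3), and these genes were still longer than the keratin genes, with a median span of 12842 bp. The TSS and the body were taken from the canonical transcript, and Wilson intervals cover counting error only. Neighbouring genes share chromatin and are not independent.

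**Figure D1:**
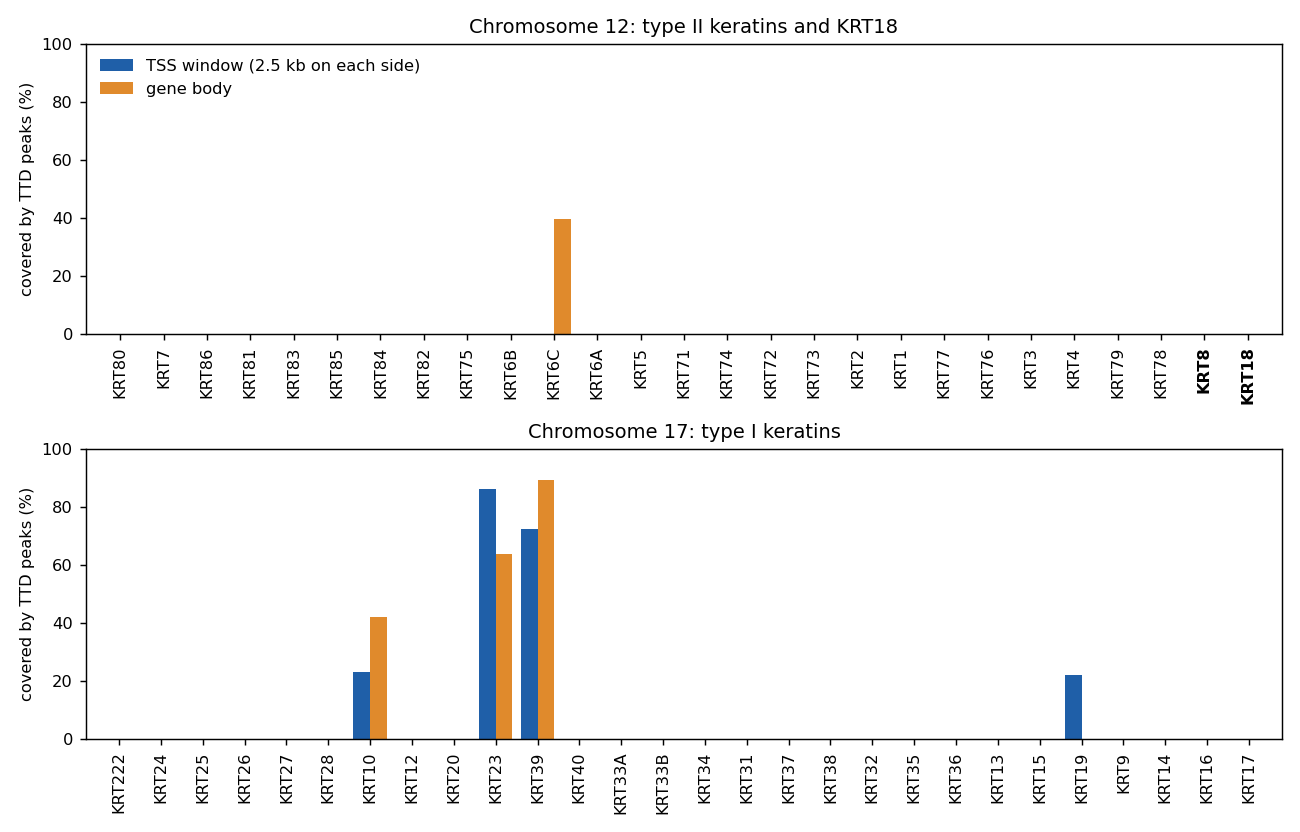
Percent of the TSS window (2.5 kb on each side, blue) and of the gene body (orange) covered by TTD peaks, for the 55 keratin genes in their order along chromosome 12 (top) and chromosome 17 (bottom), from the pooled list of both replicates and therefore without error bars. Bars are seen at 5 genes, of which KRT23 and KRT39 stand highest, and KRT8 and KRT18 (bold) are at 0%.

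KRT8 and KRT18 could therefore not be separated from most of their relatives, since 49 of the 53 others also had a TSS window without a peak. The mean TSS cover was 0% for the liver keratins and 3.84% ± 15.7 (SD over 53 genes) for the others, and both medians were 0%. For the gene body the means were 0% and 4.43% ± 16.6 (SD over 53 genes). All protein-coding genes had a mean TSS cover of 5.19% and a mean body cover of 3.31%. With 2 genes in the liver group, a count of 0 allows a share of up to 65.8% (upper Wilson bound), so a difference from the other keratins was not detectable.

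The number of keratin genes called depended on how a peak was counted. Cover of at least 10% was reached by 4 keratin genes at the TSS, against 15.3% of all protein-coding genes, and by 4 in the body, against 9.85%. With peaks of the median width of 2250 bp or more, KRT23 and KRT39 were left in both measures, 2 of 55 at the TSS against 7.31% of all genes, and 2 of 55 in the body against 18.2%. The same 2 genes had a peak within 1 kb of the TSS, against 10.8% of all genes. Within 5 kb of the TSS there were 7, with KRT6C, KRT40 and KRT31 added, against 22%. When the gene record of GENCODE, which joins all transcripts of a gene, was used, KRT40 was added at the TSS, which made 5 against 16.9%. In the body, KRT86, KRT8 and KRT40 were added, which made 7 against 34.2%. When all annotated starts of a gene were used, 6 keratin genes had a peak within 2.5 kb of a start, with KRT40 and KRT6C added, against 24.9% of all genes. KRT6C, with 28.5% of its merged windows in peaks, was then the single keratin gene called on chromosome 12.

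KRT8 (chr12:52897191-52905076, minus strand) and KRT18 (chr12:52949118-52952906, plus strand) are transcribed away from each other, with 44041 bp between their canonical starts. Although neither start had a peak nearby, this interval contained 2 TTD peaks, chr12:52914291-52916250 and chr12:52919411-52922550, which are 1960 and 3140 bp wide. They covered 11.6% of the interval, against 2.72% of chromosome 12, and among 3026 adjoining windows of this length, 6.77% reached that cover. The median cover of these windows was 0%. The interval was not among the planned results and leaves out both canonical gene bodies, which had no peak, so these values are a description. The first peak lay 9215 bp upstream of the KRT8 start, and the second one 26568 bp upstream of the KRT18 start. A further peak, of 4340 bp, lay 39443 bp downstream of the KRT18 start. No other peak was found within 100 kb of the KRT8 start.

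How KRT8 is annotated decides whether its body holds these peaks. The GENCODE record of KRT8 joins 18 transcripts and spans 52768 bp, up to and across the start of KRT18, because 9 of the transcripts begin more than 10 kb from the canonical start. Measured over this record, 5100 bp or 9.66% of KRT8 lay in TTD peaks, all of it outside the canonical gene. None of the 18 annotated starts of KRT8 and none of the 7 of KRT18 had a peak within 2.5 kb. RefSeq places a KRT8 start between the peaks and KRT18. The 250 bases before it are shown with the 200 bases at the centre of the wider peak, which lies inside the KRT8 record but outside the canonical gene. Capitals mark CG dinucleotides, the sites at which UHRF1 acts in the maintenance of DNA methylation. The promoter stretch (chr12:52926470-52926719, minus strand) contained 1 CG and lay 0% in peaks, and the peak centre (chr12:52920881-52921080, printed for the minus strand) also contained 1 CG.
KRT8 promoter: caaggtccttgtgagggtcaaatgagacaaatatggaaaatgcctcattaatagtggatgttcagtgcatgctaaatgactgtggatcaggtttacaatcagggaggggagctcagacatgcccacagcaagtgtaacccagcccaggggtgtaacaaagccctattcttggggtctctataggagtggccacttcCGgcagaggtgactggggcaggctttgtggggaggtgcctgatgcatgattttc
KRT8-KRT18 peak centre: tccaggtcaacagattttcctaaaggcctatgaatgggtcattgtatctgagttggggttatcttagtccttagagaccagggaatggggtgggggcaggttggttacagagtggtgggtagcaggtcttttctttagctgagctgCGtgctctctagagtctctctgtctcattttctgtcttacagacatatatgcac

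**Figure D2:**
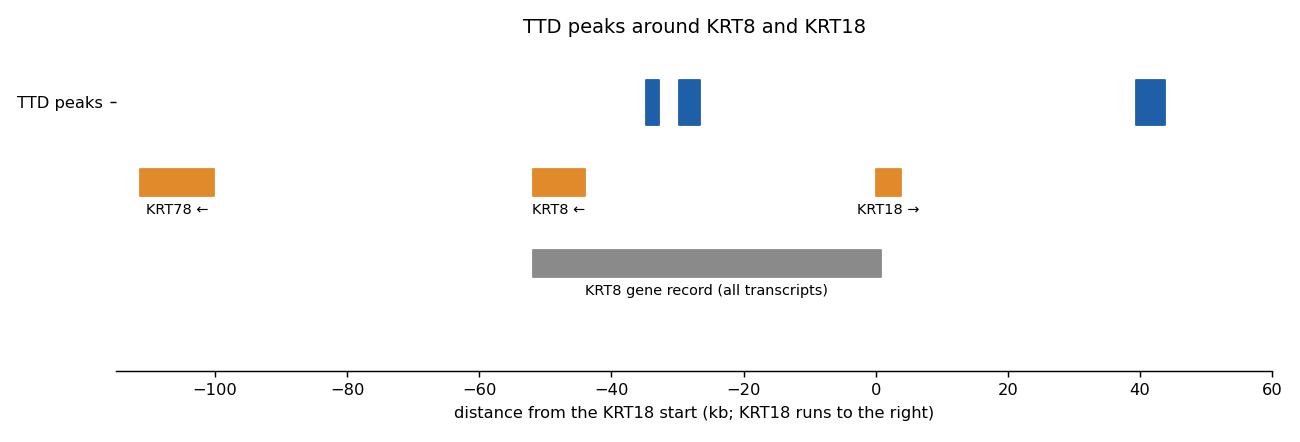
TTD peaks (blue) and genes (orange, canonical transcripts, arrows give the direction of transcription) against the distance from the KRT18 start in kb, drawn to scale. Both peaks to the left of KRT18 lie between KRT8 and KRT18 and inside the long KRT8 gene record (grey), and neither of the canonical genes is touched.

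The strongest cover was found in a stretch of chromosome 17 with KRT23, a type I keratin of simple epithelia, and KRT39, a type I hair keratin. KRT23 (chr17:40922700-40937646, minus strand) had its TSS inside a peak of 8260 bp. Its TSS window was covered to 86.1%, with 100% on the downstream side and 72.2% on the upstream side. A second peak of 4370 bp ran over the 3′ end, so that 63.7% of the body and 6 of 9 exons in full lay in peaks. KRT39 (chr17:40958417-40966948, minus strand) likewise had its TSS inside a peak, of 5380 bp. The TSS window of KRT39 was covered to 72.3%, its body to 89.5%, and 5 of its 7 exons lay fully in peaks. A TSS inside a peak was seen for 2.19% of all protein-coding genes, and a TSS window covered to at least 70% for 1.04%, while KRT23 and KRT39 are 3.64% of the keratin genes in both cases (1.00 to 12.3). The 70% limit lies just below the cover of KRT39 and was not among the planned thresholds. KRT23 and KRT39 lie in the same stretch and are not independent, so these shares are a description.

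Between the starts of KRT20 and KRT40, an interval of 99.1 kb that includes KRT23 and KRT39, 8 peaks covered 44.8% of the sequence. The cover of chromosome 17 was 4.08%, and 0.952% of its 840 adjoining windows of this length reached that of the interval. The widest of these peaks, chr17:40948661-40961780, measured 13120 bp and reached from between KRT23 and KRT39 into the 3′ part of KRT39. An lncRNA on the opposite strand (ENSG00000234477), whose record overlaps both KRT23 and KRT39, was covered to 62.5%. The genes on either side were free of peaks at their starts. KRT20 (chr17:40875889-40885242), the keratin of the intestinal epithelium, had 0% cover at TSS and body, and its nearest peak began 14659 bp upstream. KRT40 (chr17:40977715-40984326), another hair keratin, also had 0% in both. However, a peak of 670 bp lay 2525 bp upstream of its canonical start, just outside the window, and 3 of its 4 annotated starts had this peak within 2.5 kb. Beyond KRT40, the peaks continued over KRTAP genes. Counted from the first to the last peak, the stretch measured 172 kb with 14 peaks and a cover of 43.5%. The limits of this stretch were set by the peaks themselves, and the KRT20 to KRT40 interval was chosen with its peaks known, so the values of both, and their place among other windows, are descriptions.

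**Figure D3:**
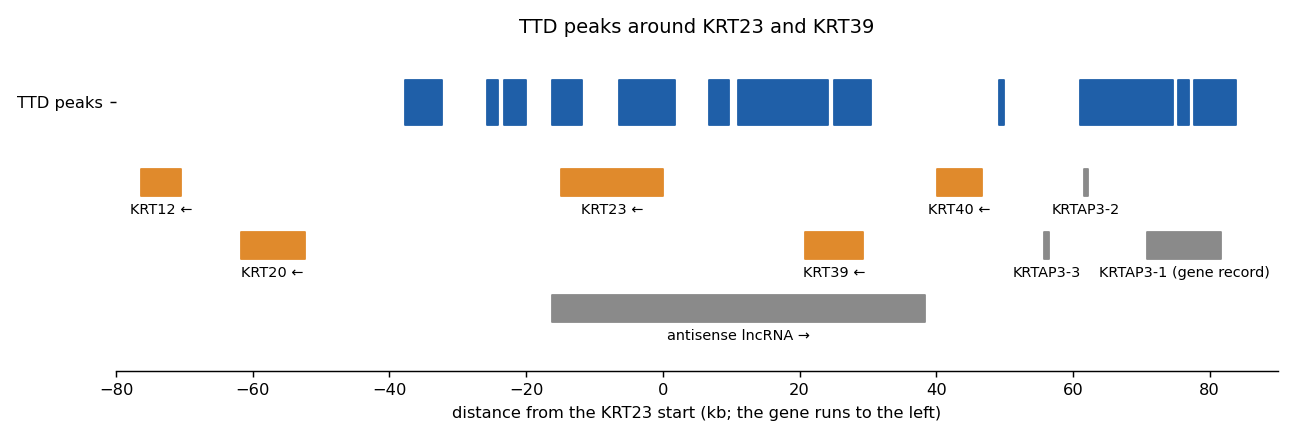
TTD peaks (blue), keratin genes (orange) and other genes (grey) against the distance from the KRT23 start in kb, drawn to scale, with arrows for the direction of transcription. Peaks lie over KRT23, KRT39, KRTAP3-2 and KRTAP3-1, and KRT12, KRT20, KRT40 and KRTAP3-3 are free of them.

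The set of RefSeq promoter sequences used here (GRCh38.p14) had entries for 34 of the 55 keratin genes. It had none for KRT18, KRT7, KRT19, KRT23, KRT6A, KRT6B, KRT6C, KRT1, KRT13, KRT14, KRT15, KRT16, KRT17, KRT72, KRT77, KRT78, KRT80, KRT81, KRT83, KRT86 and KRT222. The promoters of KRT39, KRT40, KRT20 and KRT10 are shown to compare a start inside a peak with neighbouring starts outside. Each line gives the 250 bases before the start, on the minus strand of chromosome 17, with CG dinucleotides in capitals. The KRT39 stretch (chr17:40966949-40967198) lay fully in a peak. The stretches of KRT40 (chr17:40984327-40984576), KRT20 (chr17:40885243-40885492) and KRT10 (chr17:40822615-40822864) lay fully outside. All were poor in CG dinucleotides, with 1 in KRT39, 3 in KRT40, 2 in KRT20 and 0 in KRT10. The last line gives the 200 bases at the centre of the peak over the KRT23 start (chr17:40935221-40935420, minus strand), which lie in an intron and hold no CG.
KRT39 promoter: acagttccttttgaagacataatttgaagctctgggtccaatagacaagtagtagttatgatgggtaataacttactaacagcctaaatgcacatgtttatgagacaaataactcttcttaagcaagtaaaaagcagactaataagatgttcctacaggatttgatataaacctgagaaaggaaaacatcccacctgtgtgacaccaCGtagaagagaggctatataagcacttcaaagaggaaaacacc
KRT40 promoter: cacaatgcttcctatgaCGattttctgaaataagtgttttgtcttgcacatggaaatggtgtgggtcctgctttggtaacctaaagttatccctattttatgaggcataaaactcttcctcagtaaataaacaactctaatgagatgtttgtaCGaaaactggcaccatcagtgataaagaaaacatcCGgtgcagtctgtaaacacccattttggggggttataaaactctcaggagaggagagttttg
KRT20 promoter: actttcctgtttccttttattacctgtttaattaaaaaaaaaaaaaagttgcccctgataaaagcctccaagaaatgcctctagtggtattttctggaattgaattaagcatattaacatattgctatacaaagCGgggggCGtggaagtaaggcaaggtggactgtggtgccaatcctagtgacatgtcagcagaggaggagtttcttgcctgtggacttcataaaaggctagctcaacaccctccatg
KRT10 promoter: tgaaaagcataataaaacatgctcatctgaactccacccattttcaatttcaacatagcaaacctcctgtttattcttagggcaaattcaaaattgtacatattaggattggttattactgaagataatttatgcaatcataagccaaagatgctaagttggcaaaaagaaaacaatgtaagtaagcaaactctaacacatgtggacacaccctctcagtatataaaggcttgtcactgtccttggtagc
KRT23 peak centre: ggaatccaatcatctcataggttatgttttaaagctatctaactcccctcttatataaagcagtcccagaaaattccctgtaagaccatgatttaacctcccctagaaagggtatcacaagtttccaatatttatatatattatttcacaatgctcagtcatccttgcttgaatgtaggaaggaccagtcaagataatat

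A TATA box (TATAAA, on either strand) was present in 21 of 38 keratin promoter sequences, or 55.3%, against 10.7% of all 35116 promoter sequences of this length. Among the printed promoters, KRT39, KRT40 and KRT10 contain it and KRT20 and KRT8 do not, so it was found both inside and outside of peaks. The printed KRT8 sequence belongs to the RefSeq start between the peaks and KRT18, and not to the canonical KRT8 start. The FOXA motif (TGTTTAC, either strand) occurred in the KRT40 sequence alone, or 2.63% of the keratin promoters against 2.98% of all. Neither the HNF4A motif (CAAAGTCCA) nor the AP-1 motif (TGANTCA) was found in the promoters of these 34 genes, which do not include KRT18, KRT19, KRT23 or KRT6C, and over all promoters they occurred in 0.325% and 6.57%. The search was for these letters on both strands of 250 bases, and each motif was counted on its own, whether or not it overlapped another.

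The remaining members with peaks differed in where the peaks lay. At KRT10 (chr17:40818117-40822614, minus strand), the type I keratin of the upper epidermis, the body was touched by 2 peaks. The first one, of 1550 bp, lay inside the gene and began 1344 bp downstream of the TSS. The second one, of 2110 bp, ran over the 3′ end, with most of it beyond the gene. The TSS window of KRT10 was covered to 23.1%, all on the downstream side, and the body to 41.9%, with 6 of 8 exons touched. The antisense lncRNA KRT10-AS1 starts within KRT10, and its TSS window was covered to 68%. At KRT19 (chr17:41523617-41528308, minus strand), the bile duct keratin, the peak was upstream instead. It measured 1710 bp, began 1393 bp upstream of the TSS and covered 44.3% of the upstream side, which is 22.1% of the TSS window, and the body of KRT19 was free of peaks. Its chromosomal surroundings were poor in peaks, as this was the single peak within 100 kb of the KRT19 start. Its type II partner KRT7 (chr12:52233243-52248921, plus strand) had 0% at TSS and body, and the nearest peak was 29268 bp downstream of the start.

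KRT6C (chr12:52468516-52473805, minus strand), an epidermal keratin of the KRT6 family, was the single type II gene with a peak in its canonical body. This peak of 2100 bp lay inside the gene, covered 39.7% of it and touched 5 of 9 exons. It began 2555 bp downstream of the canonical TSS, so that this TSS window was free. KRT6A and KRT6B, its closest relatives, had 0% in both measures. The sequence under the KRT6C peak aligned to KRT6A over 94.2% of its length with an identity of 89.1%, and to KRT6B over 84.1% with 90.5%. Of the 1951 windows of 150 bp in this peak, 3.23% were found letter for letter in KRT6A and 0% in KRT6B, and the aligned parts of KRT6A and KRT6B were not in peaks. How reads that match several places were treated is not given in the sources used here.

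The keratin genes were also counted by chromosome, and the Wilson intervals of both chromosomes overlapped. On chromosome 12, 0 of 27 keratin genes had a peak in the TSS window, which allows a share of up to 12.5% (upper Wilson bound), against 11.9% of all protein-coding genes on this chromosome. On chromosome 17 there were 4 of 28, or 14.3% (5.70 to 31.5), against 16.6%. In the gene body, 1 of 27 keratin genes on chromosome 12 (0.657 to 18.3%) and 3 of 28 on chromosome 17 (3.71 to 27.2%) had a peak, against 29.2% and 26.8% of the genes of these chromosomes. The keratin span of chromosome 12 (chr12:52168996-52952906) contained 4 peaks, or 5.10 per Mb, where the whole chromosome had 9.39, with a cover of 1.16%. Of the 170 adjoining windows of this length on chromosome 12, 38.2% had this cover or less. A gap of 443 kb without a peak, from chr12:52471251-52914290, held 15 keratin genes from KRT6A to KRT8, among them KRT5, KRT1 and KRT2 of the epidermis and KRT4 of the mucosa. Since the peaks set the limits of such a gap, its length and its genes are a description. The keratin span of chromosome 17 (chr17:40654665-41624575) contained 20 peaks, or 20.6 per Mb, where the whole chromosome had 15.5. Its cover was 9.38%, which 12.9% of 85 adjoining windows reached. A second such gap, of 330.1 kb, lay within this span and held the hair keratins KRT33A, KRT33B, KRT34 and KRT31.

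Within chromosome 17 the cover was uneven. The piece from KRT222 to KRT28, which holds the type I genes of the inner root sheath, had 1 peak and 1.27% cover, and the piece from KRT10 to KRT40 had 10 peaks and 27.8%. In the piece from KRT33A to KRT17, with hair keratins and KRT13, KRT14, KRT15, KRT16 and KRT17 of stratified epithelia, 3 peaks covered 3.82%. Of the 34 KRTAP genes in between, 5 had a peak in the TSS window, or 14.7% (6.45 to 30.1), against 16.6% of the protein-coding genes of chromosome 17. KRTAP3-1 and KRTAP2-3 were covered to 100% at the TSS, KRTAP3-2 to 74.3%, KRTAP2-2 to 22.8% and KRTAP2-4 to 15.4%. The other KRTAP genes, 60 on chromosomes 11 and 21, also had 5 TSS windows with a peak, or 8.33% (3.61 to 18.1), against 16.9% of all protein-coding genes. The covers were 44.6% at KRTAP5-7, 22.6% at KRTAP10-4, 6.82% at KRTAP5-9, 6.60% at KRTAP5-10 and 5.52% at KRTAP5-8.

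The keratin genes were also grouped by the tissue of their filaments, with 16.9% of all protein-coding genes as the background at the TSS, 11.9% on chromosome 12 and 16.6% on chromosome 17. All 4 genes with a peak at the canonical TSS were type I genes, while KRT6C of type II was added when all annotated starts were used. Since nearly all type I genes lie on chromosome 17 and all type II genes on chromosome 12, type and chromosome cannot be told apart. Of the 4 simple epithelial type I keratins, KRT23 and KRT19 had one and KRT18 and KRT20 had none, and both simple epithelial type II keratins, KRT7 and KRT8, had none. In the group of epidermal, mucosal and remaining epithelial keratins, KRT10 had one among 10 type I genes, and none of the 13 type II genes did. KRT39 had one among 11 type I hair and nail keratins, and the 6 type II hair and nail keratins had none. No peak was found at the TSS or in the body of the 4 type I keratins of the inner root sheath or of the 5 type II keratins of the inner root sheath and companion layer. These groups are small, and 0 of 5 genes allows a share of up to 43.4% (upper Wilson bound).

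The distance from the TSS to the nearest peak had a median of 39791 bp over the keratin genes, with quartiles at 15844 and 67897 bp, against 30525 bp (6721 to 87646) for all protein-coding genes. KRT8 with 9215 bp and KRT18 with 26568 bp were thus closer to a peak than the median keratin. A TSS closer than 10 kb to a peak was found for 10 keratin genes, or 18.2%, against 29.9% of all protein-coding genes. These were KRT23, KRT39, KRT10, KRT19, KRT40, KRT6C, KRT31, KRT37, KRT24 and KRT8. Farther than 50 kb from a peak were 22, or 40%, against 38.4%. The median was 70497 bp on chromosome 12 and 22811 bp on chromosome 17, and for all protein-coding genes of these chromosomes it was 31016 and 23786 bp. The largest distances were those of KRT77 (210767 bp) and KRT1 (209157 bp). KRT10 at 1344 bp and KRT19 at 1393 bp were the members within the TSS window but outside of a peak, and KRT40 at 2525 bp and KRT6C at 2555 bp were the next outside of the window.

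**Figure D4:**
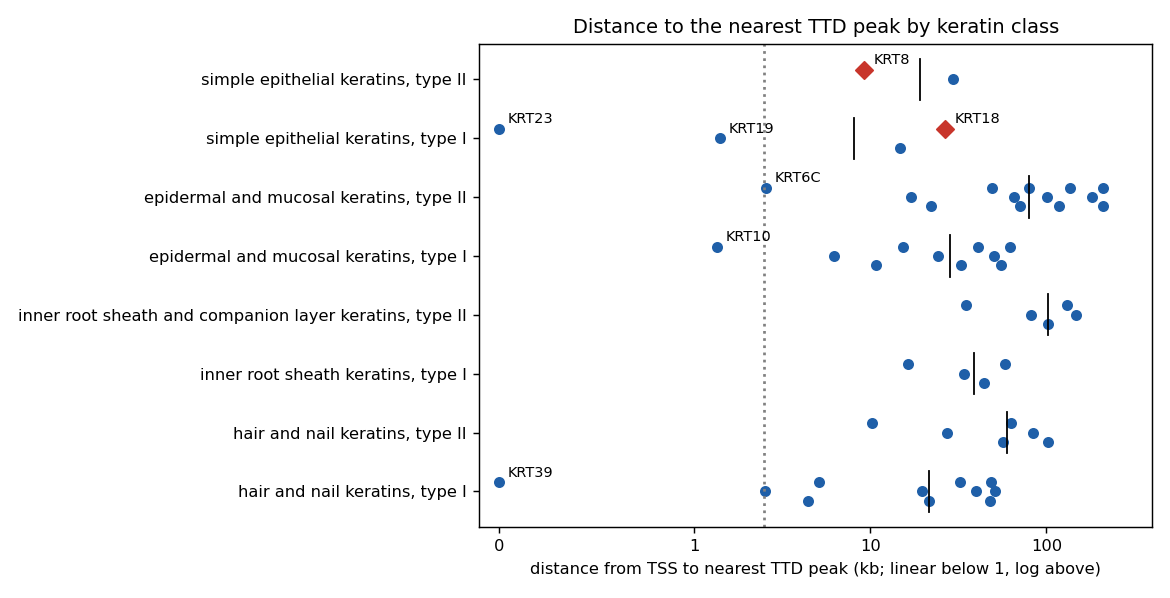
Distance from the TSS to the nearest TTD peak in kb (axis linear below 1 kb and logarithmic above) for each keratin gene, arranged by class, with black lines at the class medians and a dotted line at the 2.5 kb limit of the TSS window. KRT23 and KRT39 are at 0, KRT10 and KRT19 lie left of the dotted line, and KRT8 and KRT18 (red diamonds) lie at 9215 and 26568 bp.

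The keratin starts were poor in CpG dinucleotides. In the 1 kb around the TSS, the CpG observed/expected ratio had a median of 0.269, against 0.725 for all protein-coding genes, and 47 of 55 keratin genes were in the lowest quartile of all genes, below 0.407. KRT8 (0.345), KRT23 (0.262), KRT39 (0.229) and KRT10 (0.193) were among them. KRT18 (0.693), KRT7 (0.714) and KRT20 (0.435) were in the second quartile, and KRT19 had the highest ratio of the keratins, 0.754, in the third. In the lowest quartile, 3 of 47 keratin genes had a peak in the TSS window, against 14.1% of all genes of this quartile. The peaks in the keratin span of chromosome 17 had a median GC content of 41.8% and a median width of 3055 bp, and the 4 peaks of the chromosome 12 span had 50.5% and 2030 bp, against 43.2% and 2250 bp for all TTD peaks.

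KRT8 and KRT18 have many processed pseudogenes, copies of their mRNAs inserted elsewhere in the genome. A TTD peak overlapped 2 of 51 KRT8 pseudogenes, or 3.92% (95% Wilson interval 1.08 to 13.2), and 5 of 68 KRT18 pseudogenes, or 7.35% (3.18 to 16.1). The share over all 10658 processed pseudogenes was 4.42%.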

How the data were processed

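TTD CIDOP, H3K9me2 ChIP and input libraries of HepG2 cells were made in 2 biological replicates each. Per the methods of the authors, Trimmomatic 0.38 was used for trimming and HISAT2 2.2.1 for mapping to hg38. RPKM coverage in 10 bp bins came from deepTools 3.3.2, and both TTD tracks were averaged. MACS2 2.1.1 then called broad peaks with fixed cutoffs, and the list was then filtered with the blacklist and edited by hand. No input track or copy number correction is named for this step. The authors deposited 31569 peak positions and widths in bp, without scores. The H3K9me2 and input signals were not analysed here.

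From this list, cover was computed by interval arithmetic on GENCODE release 44 (hg38), with the TSS and span of the Ensembl canonical transcript. Adjoining windows were counted from the first base of a chromosome. The CpG observed/expected ratio was taken from the 1 kb around the TSS, promoters came from RefSeq, and the KRT6 genes were aligned with BLAST 2.17.0. No replicate error can be given and no test was made. Python 3.11.15, numpy 2.4.6, pandas 2.3.3 and matplotlib 3.10.9 were used, and on simulated intervals 2020 of 2020 values were exact.

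Named were KRT8, KRT18, KRT7, KRT19, KRT20, KRT23, all keratin genes with a peak at TSS or body, and other genes close to such peaks or in the partner lists with a peak at the TSS. Further keratins named with their distances or groups were chosen after their values were seen. The members and lists were chosen with earlier results of these data known. Alternatives were wider or joined peaks, other starts, windows, thresholds and spans, and medians.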

Additional observations from a re-analysis of the deposited data

How the results depend on the processing

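No paired analysis was possible because peaks were called on the mean of both replicates and no result comes from a test, and for the same reason no replicate could be left out. The TSS windows of KRT8 and KRT18 were at 0% under all alternatives tried. With the 15790 peaks of the median width or more, 2 keratin genes had a peak at the TSS and 2 in the body, KRT23 and KRT39, and the keratin spans of chromosomes 12 and 17 were covered to 0.401% and 8.13%. A window of 1 kb on each side gave 2 genes at the TSS, and a window of 5 kb gave 7. With the GENCODE gene records, 7 bodies had a peak, the body of KRT8 was covered to 9.66%, and the difference in body cover between KRT8 with KRT18 and the other keratins was 0.288 instead of -4.43 percentage points, because the KRT8 record spans the interval up to KRT18. As medians, the TSS cover of the others and the differences in TSS and body cover were 0. With 100 kb on each side, the cover of the chromosome 12 span was 1.88%. The other 51 of 64 values stayed within their 95% Wilson interval or, for counts of genes, within 1.5 times. Some of these 51 could not have changed. Leaving out peaks narrower than 500 bp removed nothing, since the narrowest peak in either keratin span was 670 bp wide. Removing peaks, joining them across gaps under 1 kb or narrowing the window could not bring cover to KRT8 or KRT18. Their starts lay 9215 and 26568 bp from the nearest peak, beyond the widest window of 5 kb. Such values do not test how stable the results are. The Wilson interval takes nucleosome-sized stretches of 150 bp as the unit for the cover of a gene or span, and the 53 genes for means and differences over the other keratins. Stretches within a peak are not independent, and a mean cover is not a proportion of genes. These intervals therefore serve only as a yardstick for change and do not measure the error of a cover.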

Other observations

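Genes that work with keratins were also compared with the TTD peaks. Desmosomes are the cell contacts to which keratin filaments attach, and of 12 desmosome genes 1 had a peak in the TSS window, DSC2 with a cover of 4.20%, and 6 had one in the body. Of 8 genes of hemidesmosomes and of plakins, which link filaments to membranes and to other filaments, ITGA6 (13.5%) and MACF1 (1.32%) had a peak in the TSS window, and 3 had one in the body. None of 15 other intermediate filament genes, such as those of vimentin, desmin and the lamins, had a peak in the TSS window (upper Wilson bound 20.4%), and 5 had one in the body. All protein-coding genes had a peak in 16.9% of the TSS windows and 30.6% of the bodies. The Wilson intervals of the body shares, in the order above, were 25.4 to 74.6%, 13.7 to 69.4% and 15.2 to 58.3%, and all contain 30.6%. Median spans were 42334.5 bp for desmosome genes, 54618.5 bp for hemidesmosome and plakin genes and 12342 bp for the other filament genes. For all protein-coding genes the median was 22913 bp, and the body counts were not adjusted for length.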
